A study of Homo sapiens with 12 samples.

Results

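The genes described here encode the nuclear subunits of the respiratory chain and of ATP synthase. They were chosen by platform symbol (NDUFA, NDUFB, NDUFC, NDUFS or NDUFV plus a number, SDHA to SDHD, and symbols that start with UQCR, with COX4 to COX8 or with ATP5), pseudogenes left out. The rule found 76 genes of the 18852 genes with 1 platform symbol, of which 32 belong to complex I, 3 to complex II, 8 to complex III, 16 to complex IV and 17 to complex V. ATP5IF1, the inhibitor of ATP synthase, and UQCRHL, a near-identical copy of UQCRH, also carry such symbols and were kept. The symbols matched were updated ones, so COXFA4, formerly NDUFA4, was not taken and is described below among other symbols. Transcripts of mitochondrial DNA were not analysed here.

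The cells were HepG2, an established line from a human liver tumour, and 12 cultures were measured on 1 array each (Illumina HumanHT-12, whose probes report messenger RNA levels). By the study's methods the cells, at passage 8 to 10 and in medium with 10% serum, were held in 2.7 mM glucose for 16 h and then placed in the test medium for 8 h. The 6 high glucose cultures received 25 mM glucose, and the 6 low glucose cultures received 2.7 mM by the sample labels but 0 mM by the methods, which the files do not settle. Both groups are the unmodified line and by the labels differ in the glucose of the medium alone. All arrays are of 1 cell line at 1 time point, so a difference is one between the media after 8 h and not a course over time.

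The respiratory chain sits in the inner mitochondrial membrane. Complexes I and II pass electrons from NADH and succinate to ubiquinone, complex III passes them to cytochrome c, and complex IV (cytochrome c oxidase) passes them to oxygen. Complexes I, III and IV pump protons, and the return of the protons through complex V (ATP synthase) drives the synthesis of ATP. Except in complex II, the complexes combine subunits encoded in the nucleus, whose messages these arrays measure, with subunits encoded in mitochondrial DNA.

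Values are probe intensities on a linear scale, quantile normalized by the authors across the arrays, and a log2 change is high glucose minus low glucose. Each gene was taken from its brightest probe, and a gene was called where limma's adjusted p over all 18852 genes was under 0.05. The lowest intensity on any array was 47.2 and the median of each array about 90.8. Background correction is not described by the study. Intensities of different probes are not comparable levels of different messages. Hepatocyte genes were bright in both groups, with ALB at 27653 ± 1210 in high and 28153 ± 1239 in low glucose (SD, n = 6), and of the 10 markers measured FGB was higher and APOB lower. Defining markers of other cells were near background apart from PECAM1 of endothelium at 208.5 and CD14 of leukocytes at 383: the 4 fibroblast markers had mean intensities of 70.9 to 109.7 and none was called, PTPRC and CD3E of leukocytes averaged 89.4 and 86.8, and VWF and CDH5 of endothelium 67.7 and 71.5. Of those marker lists, VWF (log2 change 0.20) and CD14 (0.69), a gene that hepatocytes also express, were called higher. Summed over each list, intensities per array were 332.1 to 379.1 in low and 328.7 to 370.1 in high glucose for fibroblast, 312.9 to 372.1 and 330.7 to 375.4 for endothelium, and 438.7 to 493.8 and 607.4 to 705.9 for leukocyte markers, the last apart because of CD14. The part of these markers in the results below was not tested. Correlations between arrays across genes were 0.994 to 0.997 within a group and 0.985 to 0.988 between groups.

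Messages of respiratory chain and ATP synthase subunits were higher in high glucose or were not called, and 0 of the 76 were called lower. The 36 that rose were 16 of complex I, 1 of complex II, 5 of complex III, 2 of complex IV and 12 of complex V. Of all genes, 16.6% were called higher and 13.3% lower. The 36 of 76 make 47.4% of the members. The median log2 change of the members was 0.12 and that of all genes 0.007, with a range among the members from −0.14 for NDUFS6 to 0.69 for ATP5MK. In 25 members every high glucose array lay above every low glucose array, and in 0 members was it the reverse. Over all genes these shares were 10.2% and 8.31%.

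The members were bright on these arrays, and 49 of them lay above the 90th percentile of mean intensity over all genes. Bright genes were called more often in general: among the 4191 genes with a mean intensity over 1000, 32.5% were called higher and 27.3% lower. Of the 59 members over 1000, 31 (52.5%) were called higher and 0 lower. The 8 members with a mean of 100 or less gave 0 calls by limma. The spread was small, with a median within-group SD of 0.10 on the log2 scale for the members and 0.127 for all genes, so changes of about 0.15 could pass the test in bright members.

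**Figure D1:**
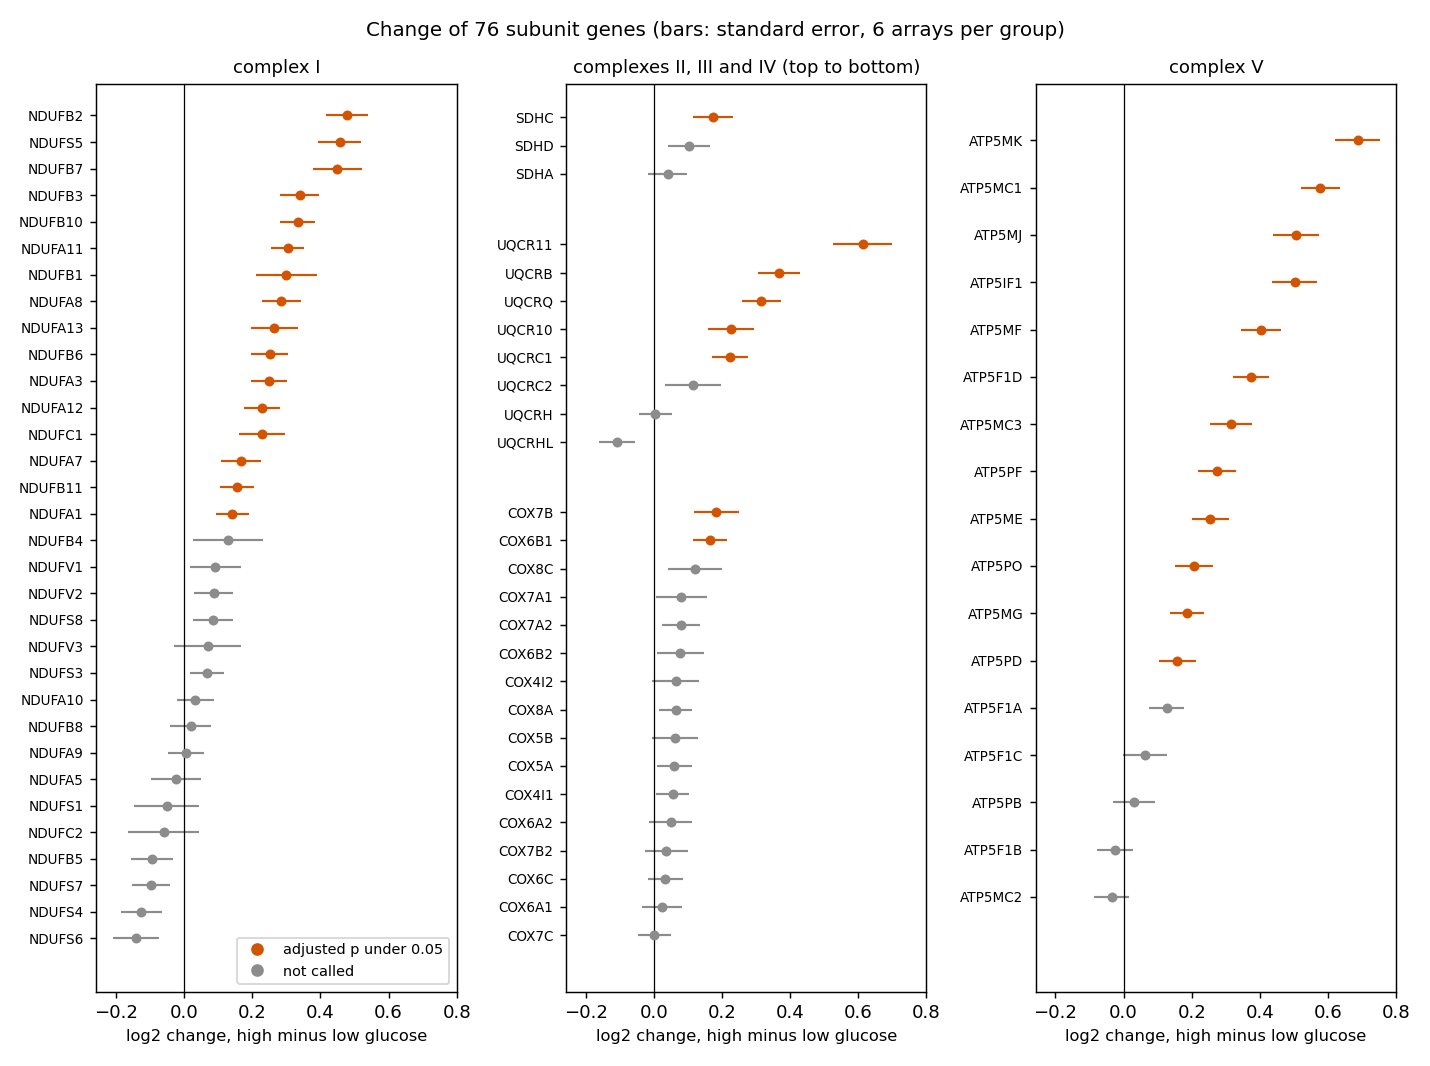
Log2 change (high minus low glucose, x axis) of each of the 76 genes with its standard error, 6 arrays per group, arranged by complex; orange points passed limma's adjusted p under 0.05 and grey points did not. The called members lie from 0.14 (NDUFA1) to 0.69 (ATP5MK), none is called below 0, and complex IV clusters near 0.

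Complex I takes electrons from NADH. The flavin and the iron-sulfur clusters of electron transfer lie in some of its core subunits. Its accessory subunits surround the core and are needed for assembly and stability. In high glucose 16 of the 32 measured members rose and 0 fell, with a median log2 change of 0.14. The 16 make 50% of the members, where 16.6% of all genes were called higher, and 32.5% of those with a mean intensity over 1000. All 16 were accessory subunits. The division into core and accessory subunits is textbook knowledge but was made after the values were seen, and is given as a description. Of the 26 accessory subunits 16 were called (median 0.20), and of the 6 core subunits 0 were called (median 0.08). The core values were 0.09 for NDUFV1, 0.09 for NDUFV2, 0.08 for NDUFS8, 0.07 for NDUFS3, −0.05 for NDUFS1 and −0.10 for NDUFS7.

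NDUFB2, an accessory subunit of the membrane arm, changed most in this complex. Its intensity ran from 6686 to 7974 with a median of 7331 in high glucose, and from 4492 to 5693 with a median of 5427 in low glucose. The groups did not overlap. The means were 7279 ± 491 and 5232 ± 506 (SD, n = 6), a 1.39-fold difference (log2 change 0.48, standard error 0.06, adjusted p = 4.2e-07 by limma).

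NDUFS5 is an accessory subunit on the intermembrane space side. It spanned 11653 to 12790 (median 12264) in high and 7022 to 9772 (median 9150) in low glucose. The arrays of the 2 groups were again separate, although low glucose replicate 5 lay well under its group. The change was 0.46 with a standard error of 0.06 (adjusted p = 1.3e-06 by limma), and it ran from 0.39 to 0.48 as each array was left out.

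NDUFB7, which faces the same side, spanned 4320 to 4831 (median 4390) in high and 2732 to 4150 (median 3155) in low glucose. High glucose arrays were close together and low glucose arrays more spread, with SDs of 189 and 516. The log2 change was 0.45 (standard error 0.07, adjusted p = 1.2e-05 by limma). NDUFB3, a small subunit of the membrane arm, spanned 5453 to 6240 and 4135 to 5085, and its change of 0.34 (adjusted p = 2.1e-05 by limma) had a counterpart of 0.43 on its second probe.

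The next changes, of members named after their values were seen, were 0.33 for NDUFB10, 0.30 for NDUFA11, 0.30 for NDUFB1, 0.28 for NDUFA8 and 0.26 for NDUFA13. NDUFB10, NDUFA11 and NDUFA8 had separate groups, and NDUFB1, at a mean intensity of 109.9, and NDUFA13 overlapped. At the other end of the called range NDUFA1, one of the brightest probes of the complex, averaged 13867 ± 736 against 12561 ± 414 (SD, n = 6), a change of 0.14 (adjusted p = 0.028 by limma). NDUFA1 lost its call without any one of 4 arrays. The brightest, NDUFB8, gave 14214 ± 1593 and 13959 ± 428, with medians of 13852 and 14061 that ran the other way (log2 change 0.02, adjusted p = 0.87). The lowest values in the complex, −0.14 for NDUFS6 and −0.13 for NDUFS4, were not called (adjusted p = 0.12 and 0.13).

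**Figure D2:**
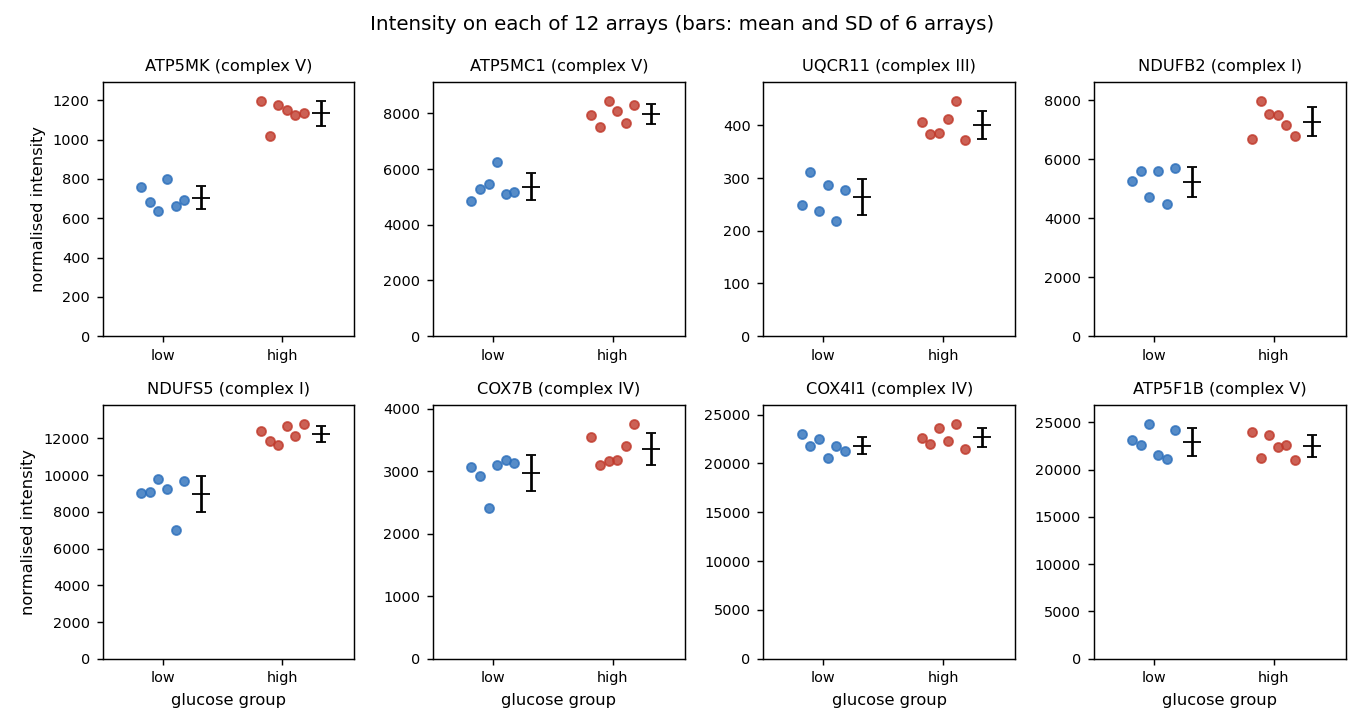
Normalised intensity (y axis, from 0) of 8 members on each of the 12 arrays, blue for low and red for high glucose, with the mean and SD of 6 arrays in black. In ATP5MK, ATP5MC1, UQCR11, NDUFB2 and NDUFS5 the groups are separate. COX7B overlaps, with 1 low glucose array at 2406, and COX4I1 and ATP5F1B overlap over most of their range.

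Complex II, succinate dehydrogenase, is also an enzyme of the citric acid cycle. SDHA, the flavoprotein that oxidises succinate, averaged 3525 ± 294 in high and 3418 ± 161 in low glucose (SD, n = 6) and was not called (log2 change 0.04, adjusted p = 0.67 by limma). SDHC and SDHD anchor the enzyme in the membrane. SDHC spanned 2702 to 3133 (median 2851) in high and 2236 to 2814 (median 2550) in low glucose, so the groups overlapped slightly. Its change of 0.17 was called (standard error 0.06, adjusted p = 0.025 by limma), and its second probe gave 0.36. SDHC was the 1 call among 3 members, and it was lost without high glucose replicate 5 or 6 and without low glucose replicate 2 or 6 (adjusted p = 0.054 to 0.087). SDHD had a change of 0.10 (adjusted p = 0.24). Of all genes 16.6% were called higher, and 32.5% of those with a mean intensity over 1000, so 1 call of 3 lies near the latter share.

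In complex III, the cytochrome bc1 complex, 5 of 8 members (62.5%) rose and 0 fell (median 0.23), where 16.6% of all genes were called higher. Among genes with a mean intensity over 1000 it was 32.5%. UQCR11, the smallest subunit, spanned 371.8 to 445.9 with a median of 396.2 in high glucose, and 218.7 to 311.5 with a median of 263.5 in low glucose. Every high glucose array was above every low glucose array. At 401 ± 26.6 against 264 ± 34.6 (SD, n = 6) it was 1.53-fold higher (log2 change 0.61, standard error 0.09, adjusted p = 1.7e-06 by limma).

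UQCRB, which helps to form the ubiquinone site, spanned 1064 to 1217 and 800.1 to 963.5, also without overlap. Its change of 0.37 (adjusted p = 2.4e-05 by limma) was not shared by its second and dimmer probe, at −0.11 and a mean intensity of 195.8, and with the mean of both probes it was 0.13 and not called (adjusted p = 0.19). UQCRQ, a small subunit next to cytochrome b, averaged 14250 ± 896 against 11466 ± 906 (SD, n = 6), a change of 0.31 with separate groups (adjusted p = 5.7e-05 by limma). UQCR10 had a change of 0.23 (adjusted p = 0.0094 by limma) on 3 probes that were each called, at 0.23, 0.23 and 0.28.

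The large core proteins of complex III, which face the matrix, were UQCRC1 with a change of 0.22 (adjusted p = 0.0011 by limma) and UQCRC2 with 0.11 (adjusted p = 0.36). UQCRH, the acidic hinge protein that helps cytochrome c to dock, averaged 13889 ± 618 and 13846 ± 357 (SD, n = 6). Its log2 change was 0.004 (adjusted p = 0.97). The probe named for UQCRHL gave 13657 ± 886 and 14705 ± 724 (log2 change −0.11, adjusted p = 0.14), and since the sequences are nearly the same the 2 probes may read the same message.

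Complex IV had few calls, with 2 of 16 members called higher, 0 lower and a median of 0.06. The 2 calls make 12.5% of the 16 members, and 20.0% of the 10 ubiquitous subunits once the 6 tissue isoforms near background are left out. Of all genes 16.6% were called higher, and 32.5% of those with a mean intensity over 1000, as all 10 ubiquitous subunits have. All 16 changes lay above 0, though most were small, while 51.8% of all genes lay above 0. COX7B, a small membrane subunit, spanned 3104 to 3756 (median 3289) in high and 2406 to 3177 (median 3079) in low glucose. The groups overlapped, and the lowest of the 12 arrays was low glucose replicate 3. The change was 0.18 (standard error 0.07, adjusted p = 0.032 by limma), but 0.125 without that array (adjusted p = 0.12), and the call was also lost without low glucose replicate 2 or high glucose replicate 1, 5 or 6. COX6B1, which lies on the intermembrane space side, averaged 10479 ± 556 against 9337 ± 401 (SD, n = 6), a change of 0.17 (standard error 0.05, adjusted p = 0.012 by limma).

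The other ubiquitous subunits of complex IV were measured at intensities between 5523 and 22234, far above the array median, and had changes between 0.002 and 0.08. COX4I1, the common form of the largest nuclear subunit, spanned 21485 to 24048 (median 22425) in high and 20502 to 22991 (median 21816) in low glucose. The groups overlapped over most of their range (log2 change 0.05, standard error 0.05, adjusted p = 0.48 by limma). COX7C, a small membrane subunit, averaged 18869 ± 1150 and 18815 ± 341 (SD, n = 6), a change of 0.002 (adjusted p = 0.98).

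The isoforms of complex IV that belong to other tissues or conditions were near background. COX4I2, known from lung and from low oxygen, COX6A2 and COX7A1, of heart and skeletal muscle, and COX6B2, COX7B2 and COX8C, of testis, had mean intensities between 65.1 and 85.5. Their changes lay between 0.04 and 0.12 and none was called (the lowest adjusted p was 0.3, for COX8C, and without high glucose replicate 3 COX8C reached 0.029). Whether these messages were present in HepG2 could not be seen at this signal.

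**Figure D3:**
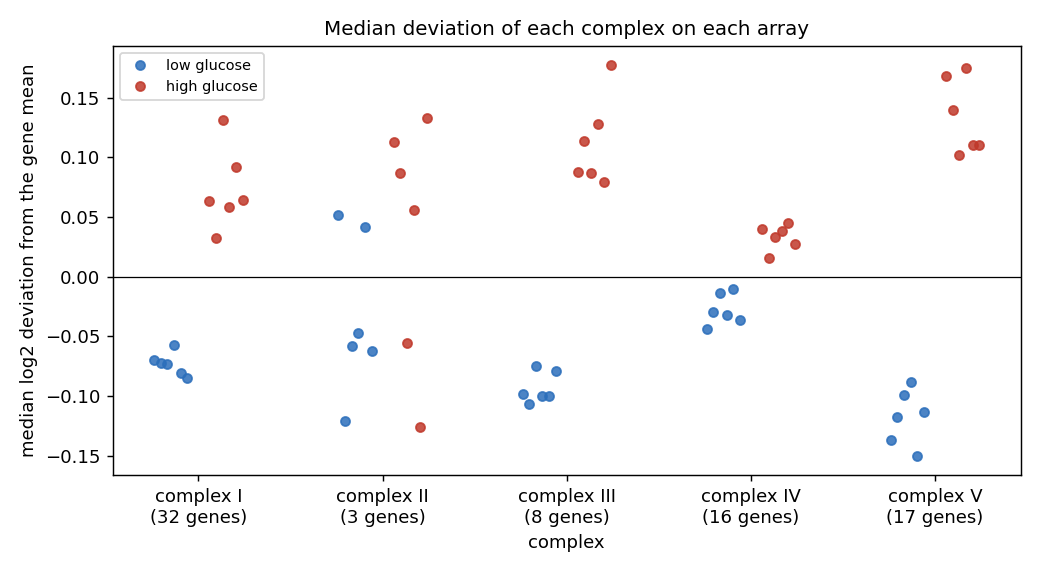
Median log2 deviation of the members of each complex from their own means over the 12 arrays (y axis), 1 point per array, blue for low and red for high glucose. High and low glucose arrays are separate in complexes I, III, IV and V, lie farthest apart in complex V and close together in complex IV, and overlap in complex II, which rests on 3 genes.

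Complex V held the largest share of calls. Of 17 members 12 (70.6%) rose, 0 fell and 11 had separate groups, with a median log2 change of 0.25. Over all genes 16.6% were called higher, and 10.2% had every high glucose array above every low glucose array. Of genes with a mean intensity over 1000, 32.5% were called higher. ATP synthase has a catalytic F1 head and a rotor of c subunits, linked by a central and a peripheral stalk, and small membrane subunits that join the enzyme into dimers. Grouped by these parts, which was done after the values were seen and is a description, 5 of 5 small membrane subunits rose (median 0.40), 3 of 4 peripheral stalk subunits (0.18), 2 of 3 genes of the c subunit (0.32) and 1 of 4 subunits of the head and central stalk (0.10). The inhibitor ATP5IF1 rose too.

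ATP5MK, also known as DAPIT, is one of the small subunits found where ATP synthase forms dimers, and had the largest change of all 76 members. Its intensity spanned 1018 to 1197 with a median of 1144 in high glucose, and 638.3 to 799.1 with a median of 686.5 in low glucose. The groups were far apart relative to their spread, with means of 1134 ± 62.4 and 705 ± 60.7 (SD, n = 6). High glucose exceeded low glucose 1.61-fold (log2 change 0.69, standard error 0.07, adjusted p = 1.7e-09 by limma), and the change stayed between 0.66 and 0.72 as each array was left out. ATP5MJ, its small neighbour in the dimer, averaged 1763 ± 88.0 and 1247 ± 143.5 (SD, n = 6), a change of 0.51 (adjusted p = 5.7e-07 by limma) with separate groups.

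The c subunit, whose ring turns as protons pass, is encoded by ATP5MC1, ATP5MC2 and ATP5MC3, which differ in their import sequences but give the same mature protein. Of these, 2 rose. ATP5MC1 spanned 7503 to 8444 (median 8015) in high and 4864 to 6258 (median 5243) in low glucose, without overlap. It was 1.49-fold higher (log2 change 0.58, standard error 0.06, adjusted p = 3e-09 by limma), and its second probe gave 0.64. ATP5MC3, named with ATP5MC2 after their values were seen, rose by 0.32 (917 ± 38.1 against 738 ± 52.2, SD, n = 6, adjusted p = 0.00017 by limma). ATP5MC2 averaged 6538 ± 103.8 and 6711 ± 484 (SD, n = 6), with changes on its probes of −0.03, −0.05 and 0.02, none of them called. The difference between these changes was not tested.

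ATP5IF1 encodes the inhibitor that binds the F1 head and stops it from splitting ATP. It spanned 989.6 to 1262 (median 1159) in high and 748.5 to 902.8 (median 796.2) in low glucose. All 6 high glucose arrays were above the 6 low glucose arrays (log2 change 0.50, standard error 0.07, adjusted p = 4.7e-07 by limma), and the second probe gave 0.41.

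The catalytic head had very bright probes and small changes. ATP5F1B, the catalytic beta subunit, spanned 21059 to 23928 (median 22509) in high and 21099 to 24833 (median 22837) in low glucose, which is nearly the same range. Its change was −0.02 (standard error 0.05, adjusted p = 0.8 by limma). ATP5F1A, the alpha subunit, averaged 23952 ± 738 against 21969 ± 1431 (SD, n = 6), a change of 0.13 that lay next to the threshold (adjusted p = 0.063). It was called in 3 of 20 alternative settings and, with an adjusted p of 0.04, when all probes were fitted. In the central stalk ATP5F1C, the gamma subunit, had a change of 0.06 (adjusted p = 0.55), and ATP5F1D, the delta subunit, was the one called member of head and stalk at 0.38 (adjusted p = 1.9e-06 by limma, second probe 0.30).

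The remaining called members of complex V, named after their values were seen, were ATP5MF (0.40), ATP5PF (0.27), ATP5ME (0.25), ATP5PO (0.21), ATP5MG (0.19) and ATP5PD (0.16). ATP5MF, ATP5ME and ATP5MG are the membrane subunits f, e and g, and the others are parts of the peripheral stalk, which holds the head still while the rotor turns. ATP5PD overlapped between groups and lost its call in 5 of the 12 fits that left an array out. ATP5ME rested on its brightest probe, since its other probes gave −0.08 and −0.02. With the mean of its 3 probes its change was 0.05 and not called (adjusted p = 0.49 by limma), and so 4 of the 5 small membrane subunits then rose.

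Other probes of the same genes gave a second reading of 22 members. In 13 called members there were 16 other probes, of which 12 were called higher, 0 lower and 13 lay above 0. In 9 members without a call there were 11 other probes, of which 1 was called higher (NDUFA10, 0.21) and 0 lower. The share called higher was 16.6% over all genes and was not counted over all probes. Fitted over all 48803 probes rather than over genes, the probes used for COX7B, NDUFA7 and SDHC fell short of the threshold (adjusted p = 0.068, 0.071 and 0.058).

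Level and size of change were related only loosely. Over the 68 members with a mean intensity over 100, Spearman's rho between mean log2 level and log2 change was −0.33, given as a description, since the points share the same 12 arrays and each probe has its own brightness. Of 19 members between 1000 and 4000, 13 were called (median 0.22), and of 19 over 10000, 7 (median 0.06). Of all genes in the same ranges, 34.0% and 21.4% were called higher, so the share was lower in the brighter range there too. Where 17 members had 2 probes over an intensity of 200, the dimmer probe had the more positive change in 11 (64.7%), against 51.4% of 1884 such genes.

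**Figure D4:**
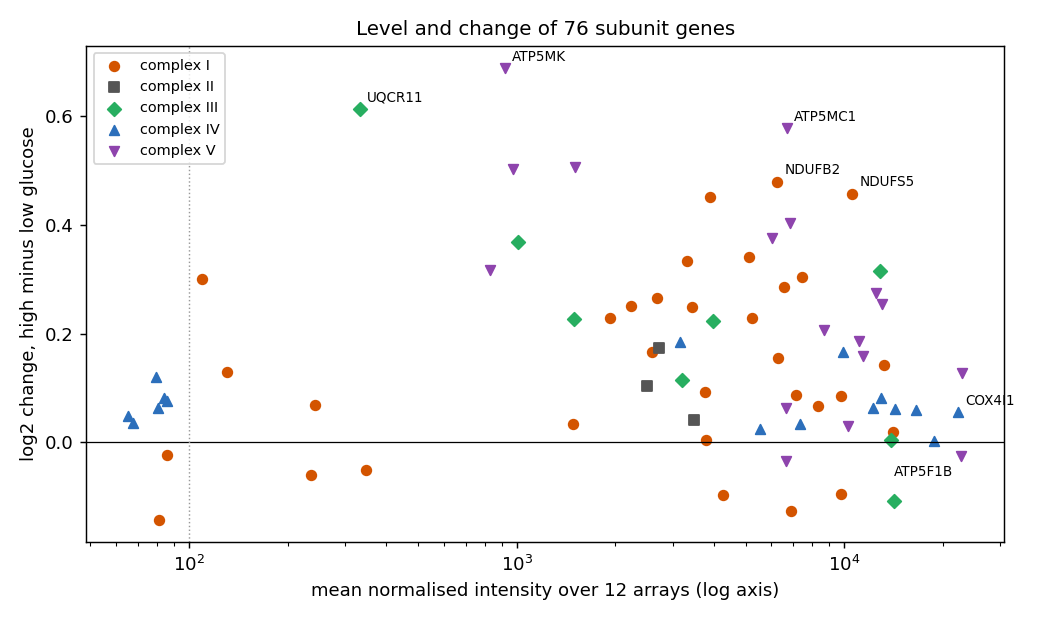
Log2 change (y axis) against mean normalised intensity over 12 arrays (x axis, log scale) of the 76 genes, with colour and shape for the complex and a dotted line at an intensity of 100. ATP5MK and UQCR11 lie high at intensities under 1000, and ATP5MC1, NDUFB2 and NDUFS5 combine a bright probe with a change over 0.4. Among the brightest, COX4I1 and ATP5F1B lie near 0, and ATP5F1A, the brightest of all, lies at 0.13.

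The median deviation of the 76 members from their own means was between 0.053 and 0.091 on the log2 scale on the 6 high glucose arrays and between −0.075 and −0.065 on the 6 low glucose arrays. The groups of arrays were thus separate, with no array between them. For complex V the array medians were 0.102 to 0.175 in high and −0.150 to −0.088 in low glucose. Complex III had 0.079 to 0.177 and −0.107 to −0.075, complex I 0.032 to 0.131 and −0.085 to −0.057, and complex IV 0.016 to 0.045 and −0.044 to −0.010.

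Promoters of nuclear respiratory genes are known for sites of the factors NRF1, GABP (an ETS factor) and YY1. The 300 bases from 250 before to 50 after the annotated start were read from RefSeq (GRCh38.p14) for 63 of the 76 members, matched by gene ID. Exact matches on either strand were counted for 4 short motifs: GCATGCG for NRF1, CCGGAAG for ETS factors, AAGATGGC for YY1 and the E-box CACGTG, to which ChREBP and other factors bind. The first overlaps its own reverse complement and the last equals it. The ETS motif was found in 19 of 63 members (30.2%) and in 10.7% of 27305 promoters. The NRF1 motif was in 17.5% and 4.13%, the YY1 motif in 14.3% and 3.03%, and the E-box in 11.1% and 7.43%.

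A match is a description of letters and not a measured site. Of 30 called members 36.7% held the ETS motif, 10.0% the NRF1 motif, 16.7% the YY1 motif and 16.7% the E-box, and of 33 members without a call 24.2%, 24.2%, 12.1% and 6.06%. Both classes therefore held each motif, and the counts are small. Complex IV, where few members moved, held the ETS motif in 5 of 13 promoters, the NRF1 motif in 2, the YY1 motif in 0 and the E-box in 0. Complex V, where most moved, held the ETS motif in 5 of 13, the NRF1 motif in 4, the YY1 motif in 3 and the E-box in 3. Whether any motif goes with the changes was not tested.

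Whole promoters are shown for ATP5MK and UQCR11, the members with the largest changes, and for COX4I1, a bright member without a call, because all 3 hold the ETS motif, written in capitals. ATP5MK (log2 change 0.69) lies on the minus strand at chr10:103396426-103396725 and has 3 matches, 2 of which overlap as a palindrome. UQCR11 (0.61) lies on the minus strand at chr19:1605413-1605712 and has 2 matches. COX4I1 (0.05, not called) lies on the plus strand at chr16:85799445-85799744 and has 1. Sequences run 5′ to 3′ on the strand of the gene.
ATP5MK: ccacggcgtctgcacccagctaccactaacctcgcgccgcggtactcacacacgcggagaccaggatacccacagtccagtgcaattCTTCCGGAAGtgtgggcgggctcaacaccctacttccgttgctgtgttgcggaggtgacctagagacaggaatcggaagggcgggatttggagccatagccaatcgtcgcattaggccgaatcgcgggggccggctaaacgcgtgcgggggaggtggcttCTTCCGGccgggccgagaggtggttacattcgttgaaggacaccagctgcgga
UQCR11: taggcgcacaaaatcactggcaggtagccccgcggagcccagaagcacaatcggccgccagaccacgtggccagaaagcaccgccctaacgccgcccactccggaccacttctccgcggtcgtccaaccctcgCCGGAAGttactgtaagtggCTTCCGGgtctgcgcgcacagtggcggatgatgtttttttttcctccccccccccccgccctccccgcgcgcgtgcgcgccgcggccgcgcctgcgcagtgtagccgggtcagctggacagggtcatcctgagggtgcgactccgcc
COX4I1: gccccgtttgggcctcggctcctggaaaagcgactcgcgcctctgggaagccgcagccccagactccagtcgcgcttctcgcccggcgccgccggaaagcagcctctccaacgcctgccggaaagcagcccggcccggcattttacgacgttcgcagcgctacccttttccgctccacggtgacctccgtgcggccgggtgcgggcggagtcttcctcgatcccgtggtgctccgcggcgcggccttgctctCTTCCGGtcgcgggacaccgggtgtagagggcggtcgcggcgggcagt

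Shorter windows of 30 bases compare members that did and did not pass the test. Among genes of ATP synthase the NRF1 motif, in capitals, was found in 4 of 13 promoters: in ATP5PF (0.27, called, chr21:25735154-25735183, minus strand) and ATP5ME (0.25, called, chr4:674334-674363, minus strand), and in ATP5MC2 (−0.03, not called, chr12:53676105-53676134, minus strand) and ATP5F1C (0.06, not called, chr10:7788146-7788175, plus strand).
ATP5PF: actcaaagagcGCATGCGtacagagcaagg
ATP5ME: ccgctgacggcGCATGCGtgcgcccagctc
ATP5MC2: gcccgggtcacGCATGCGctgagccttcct
ATP5F1C: ggagcttcggcGCATGCGcgctgaggcctg

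The E-box was found in 7 of 63 members. Chosen examples, with the motif in capitals, are ATP5MC1 (0.58, called, chr17:48892779-48892808, plus strand) just after the start, UQCR11 (chr19:1605632-1605661, minus strand) and NDUFS7 (−0.10, not called, chr19:1383708-1383737, plus strand). The others were NDUFA11 (0.30), ATP5ME (0.25) and NDUFA7 (0.17), all called, and ATP5PB (0.03, not called). Binding of ChREBP at these bases was not analysed here.
ATP5MC1: gaaggtccaggaCACGTGggtgggggaagc
UQCR11: cggccgccagacCACGTGgccagaaagcac
NDUFS7: acccgcggccccCACGTGcgcactccgatg

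Carriers and partners with other symbols gave 2 rises and 1 fall among 8 genes, where 16.6% of all genes were called higher and 13.3% lower. CYCS, somatic cytochrome c, which carries electrons from complex III to complex IV, averaged 492 ± 17.2 against 327 ± 51.5 (SD, n = 6), a change of 0.61 with separate groups (adjusted p = 2e-06 by limma). COA3, an early assembly factor of complex IV, averaged 8601 ± 346 against 5279 ± 364 (log2 change 0.71, adjusted p = 1.5e-11), and is counted again among the assembly factors below. COXFA4L2, the stress-induced relative formerly called NDUFA4L2, was the one that fell, at 1035 ± 102.9 against 1364 ± 159.6 (log2 change −0.40, adjusted p = 0.00011 by limma). Its ubiquitous relative COXFA4, formerly NDUFA4, had a change of 0.12 (adjusted p = 0.094), and CYC1, the cytochrome c1 of complex III, 0.09 (adjusted p = 0.2).

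Assembly factors build the complexes without staying in them. Of 45 measured, 21 rose, 3 fell and 21 were not called (median 0.13), where 16.6% of all genes were called higher and 13.3% lower. For complex I 5 of 13 rose, led by NUBPL (0.50), which inserts iron-sulfur clusters, TIMMDC1 (0.35) and NDUFAF6 (0.32), and NDUFAF3 fell by 0.17. For complex II 2 of 3 rose, SDHAF3 (0.57) and SDHAF1 (0.24), both of which serve the iron-sulfur subunit. For complex III 2 of 5 rose, UQCC1 (0.31) and BCS1L (0.27), a translocase of the Rieske protein. For complex V 1 of 3 rose, TMEM70 (0.55), which helps to form the c ring.

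For complex IV, most of whose subunits were not called, 11 of 21 assembly factors rose and 2 fell. COA3 and COX16 led the rises. COX16, which helps to deliver copper to subunit COX2, averaged 2724 ± 178 against 1699 ± 125.0 (SD, n = 6), a change of 0.68 (adjusted p = 3.5e-10 by limma). COX10, which makes the heme A precursor of the oxidase, went the other way, at 1802 ± 155.5 against 2571 ± 210 (log2 change −0.51, adjusted p = 2.1e-07 by limma), again without overlap. LRPPRC, which stabilises mitochondrial messages, fell by 0.24. LRPPRC is named after its values were seen.

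Regulators of respiratory genes moved in both directions, with 6 of 14 higher and 4 lower, where 16.6% of all genes were called higher and 13.3% lower. GABPB1, the partner of the ETS factor GABPA, averaged 1185 ± 88.3 in high and 1998 ± 261 in low glucose (SD, n = 6), a change of −0.75 (adjusted p = 2.8e-09 by limma) with separate groups. PPRC1, a coactivator related to PGC-1, fell by 0.61. TFB1M, which modifies mitochondrial ribosomal RNA, rose by 0.40 (adjusted p = 2.4e-06). The coactivator gene PPARGC1A and NRF1, named after their values were seen, had changes of −0.10 and 0.19 and were not called (adjusted p = 0.51 and 0.11). GABPA and YY1, also named after their values were seen, had changes of 0.24 and −0.29. Both were called (adjusted p = 0.045 and 0.00061 by limma), with overlapping groups. Of 11 enzymes of the citric acid cycle 1 rose, IDH3A by 0.25, and 2 fell, IDH3G by 0.17 and DLD by 0.16, with a median of 0.05. The counts of both lists are small. Those of the citric acid cycle lie near the same shares of all genes, and those of the regulators above them.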

How the data were processed

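RNA from 12 HepG2 cultures, 6 in high and 6 in low glucose by the sample labels, was measured on Illumina arrays, and the study calls the replicates biological. The intensities deposited by the authors are linear and quantile normalized, and per the labels GenomeStudio 2010.1 was used. The methods name limma and CyberT without settings, and background correction or filters are not described. A second table, with 24 per-sample columns that match no sample label, was not used.

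Log2 intensities were fitted in R 4.3.3 by limma 3.58.1 (lmFit and eBayes, trend on, no block), with Benjamini-Hochberg adjustment over 18852 genes. Of 48803 probes 28098 had 1 symbol, 13 several and 20692 none, and 2 pseudogenes were left out of the members. Other probes were fitted over all probes. Python 3.11.15 and matplotlib 3.10.9 drew the figures. The number of arrays limits the precision, and the scripts were tested on simulated data.

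The members and gene lists were chosen with earlier results of these data known, so no p was computed over a list. Named members are, per complex, up to 4 largest rises and 3 largest falls among the calls, the 2 brightest members, members with probes called in opposite directions (0 found) and tissue isoforms. From each list outside the members up to 3 called genes with the largest change are named. Genes named beyond this rule, and the division of complexes into parts, were chosen after values were seen. Same-numbered replicates did not deviate together (r = −0.054 to 0.021), so the numbers were not used as pairs. Alternatives were log2(intensity + 16), the mean of a gene's probes, a regularised test like CyberT (window 101 genes, prior weight 10), the replicate block, array weights, a filter (over 100 on at least 6 arrays), normexp (offset 16), centring on genes over 200, each array left out and an adjusted p under 0.01.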

Additional observations from a re-analysis of the deposited data

Results flagged for a closer look

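Each named member was checked in each group of 6 arrays for a highest or lowest array that stood apart from the other 5 by Dixon's ratio test. Chance alone sets apart about 1 group in 20, and 5 of 58 groups were set apart. In NDUFS5 the array of low glucose replicate 5 was at 7022, while the others of that group lay between 9046 and 9772. In NDUFB3 high glucose replicate 2 was at 6240 and the others between 5453 and 5735. In COX7B low glucose replicate 3 was at 2406 and the others between 2915 and 3177, and the call of COX7B was lost without it. In COX7C high glucose replicate 4 was at 21022 and the others between 17921 and 18960, and without it the log2 change was −0.029. In COX7A1, near background, the same array was at 73.9 and the others between 85.9 and 90.8.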

How the results depend on the processing

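In the 20 settings that kept the threshold at 0.05, 31 to 37 members were higher and 0 lower, and 28 of the 36 called members passed in all of them. The fewest, 31, came without high glucose replicate 6. The replicate block gave 36 higher and 0 lower, the same 36 genes, and changed no call among the members. At an adjusted p under 0.01 there were 29 higher, with 0 in complex II and 0 in complex IV. The count of higher members ran from 0 to 1 in complex II and from 1 to 3 in complex IV as single arrays were left out. NDUFA7 was called in 3 of those 12 fits, COX7B and ATP5PD in 7, NDUFA1 and SDHC in 8 and NDUFB11 in 11. Median log2 changes over the same fits were 0.112 to 0.140 for all members, 0.105 to 0.160 for complex I, 0.054 to 0.079 for complex IV and 0.217 to 0.280 for complex V. The median of all members was 0.156 with dim genes filtered and 0.152 with normexp, which gave 0.086 for complex IV. The mean of a gene's probes gave 0.176 for complex III, 0.206 for complex V and −0.079 for UQCRH. Centring gave −0.000 for UQCRH and −0.002 for COX7C. With single arrays left out, changes ran from −0.024 to 0.055 for NDUFB8, −0.010 to 0.024 for UQCRH and −0.029 to 0.017 for COX7C, so these have no settled sign. The cause of these shifts was not tested. Signals near background limit what can be seen of the tissue isoforms.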
